A study of Mus musculus with 7 samples.

Results

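The genes described here are 34 macrophage genes, chosen by name, in mouse mammary glands kept in organ culture. A gene counted as measured where a gene probe of the array carried a RefSeq accession that RefSeq's mouse gene table pairs with its symbol. This held for 28 of the 34 genes, each with 1 probe, out of 13971 genes named on 34967 gene probes. Cd68, Adgre1, Csf1r, Mpeg1, Gpnmb and Clec7a had no probe matched by this rule and are not analysed here. The macrophage label could therefore be checked on 3 of its 6 defining markers, C1qa, C1qb and Lyz2; C1qa and Lyz2 were called good on all 7 arrays and C1qb on 6, its spot on the BALB/c array without vitamin D5 being called irregular.

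Gland RNA was hybridized to 7 arrays of the CodeLink Mouse Whole Genome type, a 1-colour oligonucleotide platform, with 1 array per group and no replicate. The wild-type (WT) groups were C57 glands after 10 days of culture without DMBA, C57 glands after 24 days without DMBA, C57 glands after 24 days with DMBA, and Balb/c glands (BALB/c below) after 24 days, with or without vitamin D5. The knockout groups were αERKO and βERKO glands, from mice with the gene of estrogen receptor α or β disrupted in all tissues, after 24 days. DMBA is 7,12-dimethylbenz[a]anthracene, a polycyclic aromatic hydrocarbon that cells turn into a mutagen; the protocol gives it at 2 µg/ml for 24 h on Day 3. All glands came from 4-week-old female mice and went through serum-free culture with insulin, prolactin, aldosterone and hydrocortisone for 10 days, followed in the 24-day groups by 14 days with insulin alone. The titles of the knockout and BALB/c arrays do not mention DMBA, although the protocol attached to every sample includes it. The study describes its WT, αERKO and βERKO arrays as glands treated with DMBA, so the C57 array with DMBA is their reference for treatment. It describes the WT and βERKO glands as containing preneoplastic lesions and the αERKO glands as free of them. Genotype and the presence of lesions thus cannot be told apart for αERKO against WT. Its methods also state that the lesion-free αERKO glands gave no samples for molecular analysis, although an αERKO array exists. The treatment of the BALB/c glands is not stated further, and the dose of vitamin D5 is not given. Pretreatment of the mice is described both as 1 µg estrogen with 1 mg progesterone for 9 days and as 25 ng EGF with 1 mg progesterone for 5 days. The study's account gives EGF with progesterone as the pretreatment of the WT, αERKO and βERKO mice on these arrays. For WT, αERKO and βERKO, equal amounts of RNA from 5 mice were pooled, so that the spread between mice cannot be seen. The knockout lines were made on a C57BL6/129SV background and the controls were C57, so that genotype and strain background cannot be told apart.

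Macrophages are phagocytes that live in every tissue and, in the mammary gland, lie along the ducts and in the fat pad, where they are known to clear dying cells during regression and to take part in branching. Their development depends on the transcription factor PU.1 (Spi1) and on the receptor for colony stimulating factor 1. They bind antibody-coated particles through Fc receptors, of which the activating ones signal through the adaptor Fcer1g. The adaptor Tyrobp serves other receptors such as Trem2. Macrophages also recognise lipids and debris through scavenger receptors, coat particles with complement C1q, digest them with lysozyme and cathepsins, and kill microbes with the NADPH oxidase. Whole glands were assayed, so that fewer macrophages and less RNA per macrophage cannot be told apart in any value below.

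The sequences just upstream of the start are shown for members whose probes moved together across arrays, the neighbouring genes C1qb and C1qc and the neighbouring genes Lyz1 and Lyz2, and for Marco, which followed another order. They are the 250 bases before the transcription start, from RefSeq (GRCm38.p6), 5′ to 3′ on the strand of the gene.
C1qb (chr4:136886201-136886450, - strand): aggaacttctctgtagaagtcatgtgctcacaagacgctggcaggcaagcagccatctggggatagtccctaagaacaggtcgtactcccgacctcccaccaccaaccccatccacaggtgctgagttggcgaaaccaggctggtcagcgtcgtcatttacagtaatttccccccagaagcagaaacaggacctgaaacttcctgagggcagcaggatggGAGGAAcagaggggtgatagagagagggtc
C1qc (chr4:136892915-136893164, - strand): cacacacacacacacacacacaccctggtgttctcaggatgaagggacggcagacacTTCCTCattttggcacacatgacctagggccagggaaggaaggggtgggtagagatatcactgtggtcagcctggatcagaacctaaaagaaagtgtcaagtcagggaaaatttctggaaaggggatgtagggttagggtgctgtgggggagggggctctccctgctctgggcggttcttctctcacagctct
Lyz1 (chr10:117292869-117293118, - strand): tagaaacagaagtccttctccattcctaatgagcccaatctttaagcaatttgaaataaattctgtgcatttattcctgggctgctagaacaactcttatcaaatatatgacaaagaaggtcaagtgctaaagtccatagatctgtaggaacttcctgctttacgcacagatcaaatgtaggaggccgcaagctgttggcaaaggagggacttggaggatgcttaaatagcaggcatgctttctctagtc
Lyz2 (chr10:117282273-117282522, - strand): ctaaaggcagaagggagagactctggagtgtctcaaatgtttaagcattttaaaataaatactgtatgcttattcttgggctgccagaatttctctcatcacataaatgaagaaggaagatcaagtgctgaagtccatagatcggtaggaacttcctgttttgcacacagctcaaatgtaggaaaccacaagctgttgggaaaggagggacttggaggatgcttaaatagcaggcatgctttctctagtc
Marco (chr1:120505025-120505274, - strand): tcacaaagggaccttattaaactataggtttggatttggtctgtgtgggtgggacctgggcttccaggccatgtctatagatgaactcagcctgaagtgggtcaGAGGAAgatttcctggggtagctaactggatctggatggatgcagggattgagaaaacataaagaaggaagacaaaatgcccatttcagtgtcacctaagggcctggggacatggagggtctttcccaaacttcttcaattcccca
Capitals mark matches to GAGGAA, the core that PU.1 and other ETS factors bind, on either strand (TTCCTC on the other). Matches to TGANTCA (AP-1) and CACGTG (an E-box) were also searched, on both strands, and none lies in these 5 windows. Of the 34 genes, 24 have an upstream sequence in the table; Adgre1, Csf1r, Tyrobp, C1qa, Cd14, Msr1, Ncf4, Spi1, Clec4n and Siglec1 are missing from it. GAGGAA was found in 13 of the 24 (54.2%), against 23.1% of the 27025 upstream sequences of that length, TGANTCA in 4 (16.7%), against 6.87%, and CACGTG in 0, against 6.05%. The upstream sequences of Lyz1 and Lyz2 were identical at 78.8% of the columns of a global alignment, and those of C1qb and C1qc at 46.6%. Because the lysozyme genes are close copies, their probes may bind each other's transcripts, and their values are not independent.

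Levels below are log2 of a probe's background-subtracted intensity over the median of the gene probes of its array, so that a level of 0 is the array median and a difference of 1 is 2-fold. The scanner software called between 68.4% and 74.2% of gene probes good, that is, above background, on the 7 arrays, and between 20 and 28 of the 28 macrophage probes. Levels of different probes are not compared with each other. On the array labelled βERKO the probe of Esr2, the disrupted gene, was called good (level 0.87). It was also good on the C57 array at 24 days without DMBA (-0.55) and near background on all other arrays, the C57 array with DMBA included. The measurement and the label disagree, although the study states that all mice were genotyped, and 1 dim probe does not settle the genotype. The name "the array labelled βERKO" is kept throughout for that reason. The Esr1 probe was near background on both knockout arrays and good on the C57 array with DMBA (level -1.02), and it was also near background on both C57 arrays without DMBA.

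The C57 array with DMBA stood highest for most macrophage genes. It held the highest of the 7 levels for 22 of 28 genes, where 11.2% of the 13244 genes good on at least 1 array had theirs. The αERKO array was highest for 3 genes (Marco, Aif1 and Fcgr1), where 20.8% of all genes had their highest level. The array labelled βERKO was highest for 2 (Lgals3 and Clec4n), against 15.6% of all genes. For Cd14 the BALB/c glands given vitamin D5 were highest, as for 11.6% of all genes. At the other end, 16 genes had their lowest level on the BALB/c array without vitamin D5 and 5 on the BALB/c array with it. The share of all genes with their lowest level on either array was not counted. For 16 of 28 genes both BALB/c arrays lay below all 5 other arrays, as for 12.5% of all genes. Among the C57 arrays, 23 of 28 genes ran upward from 10 days to 24 days without DMBA and on to 24 days with DMBA, an order found for 20.7% of all genes; the exceptions were Cd14, Aif1, Lgals3, Ncf1 and Clec4n. The median level of the 28 genes was 1.41 at 10 days, 2.59 at 24 days, 4.16 at 24 days with DMBA, 2.78 on the array labelled βERKO, 1.77 on the αERKO array, 0.23 on the BALB/c array and 0.36 on that with vitamin D5.

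**Figure D1:**
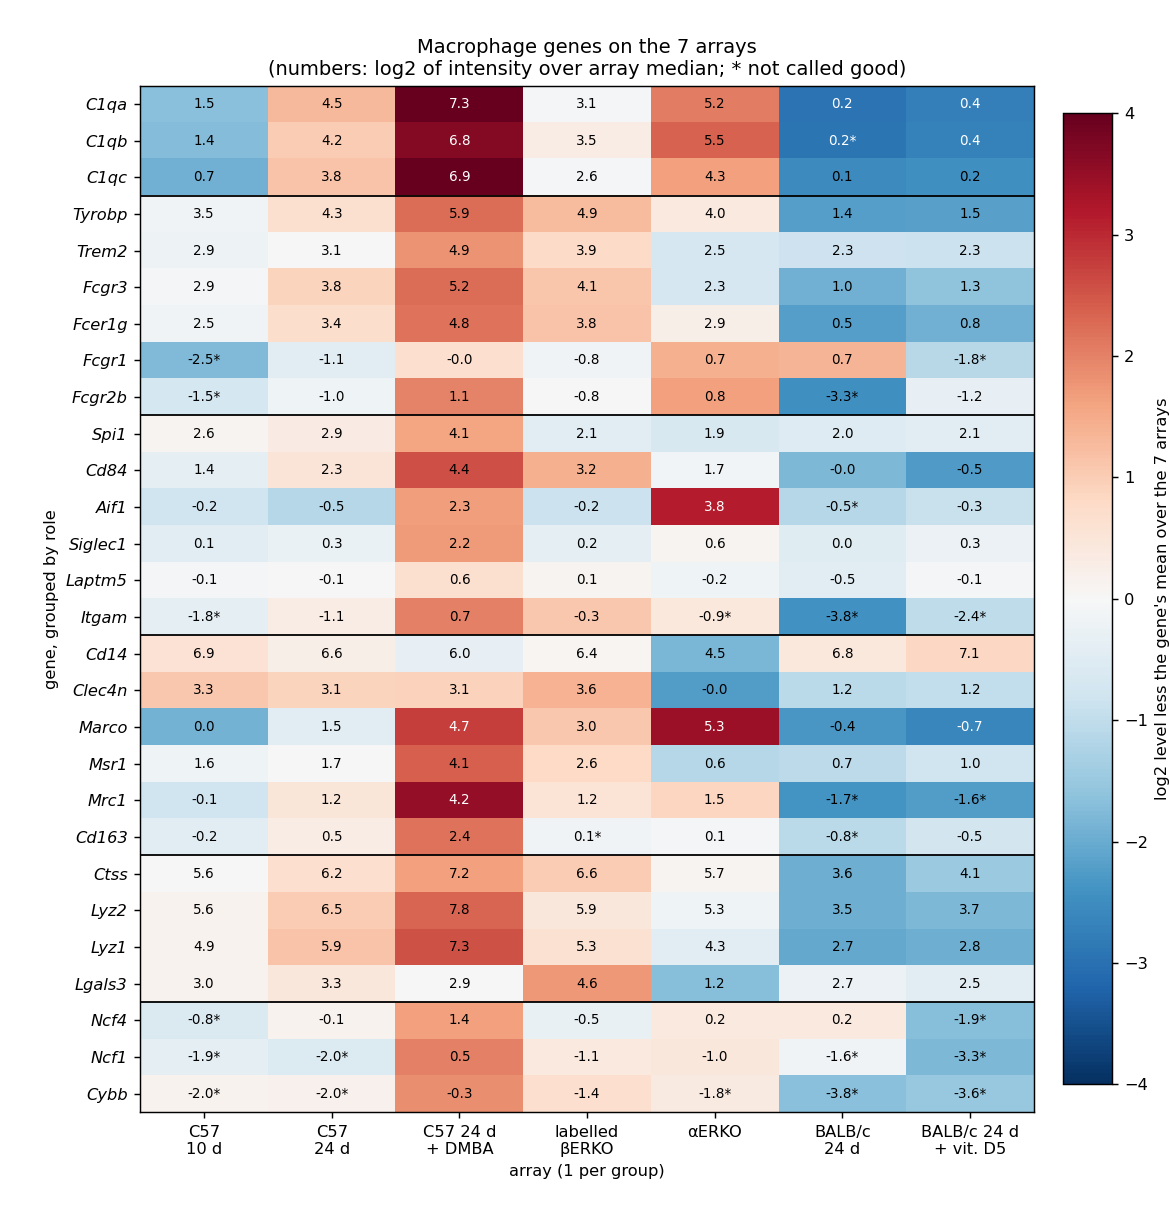
Levels of the 28 measured macrophage genes (rows, grouped by role) on the 7 arrays (columns). Numbers are log2 of intensity over the array median, colours are each gene's difference from its mean over the 7 arrays on the log2 scale (red higher, blue lower), and an asterisk marks a spot not called good; the column of C57 glands with DMBA is the highest for 22 of 28 genes.

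The widest ranges over the arrays were those of complement C1q, whose A, B and C chains are encoded by C1qa, C1qb and C1qc and form the recognition unit of the classical pathway. C1qa had a level of 1.52 in C57 glands at 10 days, 4.48 at 24 days, 7.30 at 24 days with DMBA, 3.11 on the array labelled βERKO, 5.23 on the αERKO array, 0.23 on the BALB/c array and 0.44 on that with vitamin D5. C1qc took the levels 0.73, 3.78, 6.87, 2.57, 4.31, 0.12 and 0.20 in the same order, and C1qb 1.42, 4.17, 6.83, 3.46, 5.53, 0.23 and 0.45. The 3 chains thus kept the same order of arrays, with the C57 array with DMBA first, the αERKO array second and both BALB/c arrays last. From the lowest to the highest array, the intensity spanned 134-fold for C1qa, 97.1-fold for C1qb and 107-fold for C1qc. The mannose receptor Mrc1 spanned 60.1-fold and the scavenger receptor Marco 65.4-fold, while Laptm5, a lysosomal membrane protein of blood cells, spanned 2.12-fold.

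Tyrobp, Fcer1g and Fcgr3 ran in parallel with narrower ranges. Tyrobp, the adaptor also called DAP12, had levels of 3.48 in C57 glands at 10 days, 4.29 at 24 days, 5.87 with DMBA, 4.90 on the array labelled βERKO, 4.03 on the αERKO array, and 1.44 and 1.46 on the BALB/c arrays without and with vitamin D5. Fcer1g, the common γ chain, had 2.52, 3.38, 4.83, 3.79, 2.91, 0.47 and 0.76 in this order, and Fcgr3, the low-affinity receptor that signals through it, 2.86, 3.85, 5.17, 4.07, 2.28, 1.04 and 1.34. In these 3 genes the array labelled βERKO was second to the C57 array with DMBA, a place that the αERKO array took for C1q. The other Fc receptors took another order: Fcgr1 was highest on the αERKO array (0.72), followed by the BALB/c array (0.66), and Fcgr2b was highest with DMBA (1.14), followed by the αERKO array (0.82). Lyz2, the lysozyme of macrophages, had 5.59, 6.48, 7.77, 5.91, 5.28, 3.49 and 3.67, and Lyz1 followed it with 4.86, 5.86, 7.27, 5.34, 4.28, 2.68 and 2.79. Spi1 was flatter, with 2.64, 2.87, 4.12, 2.09, 1.88, 2.02 and 2.13, so that both knockout arrays lay beside the BALB/c arrays.

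Several members gave little signal. Itgam, the integrin chain CD11b, was good on 3 of 7 arrays, with levels of -1.06 in C57 glands at 24 days, 0.67 with DMBA and -0.26 on the array labelled βERKO. Cybb was good on the C57 array with DMBA (-0.26) and on the array labelled βERKO (-1.43), and Ncf1 on those (0.54 and -1.11) and on the αERKO array (-1.03). Ncf4 was highest with DMBA as well (1.40) and lay between -0.52 and 0.17 on the 4 other arrays where it was good. For all these genes the C57 array with DMBA held the top level.

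DMBA was examined in C57 glands at 24 days, with it over without it. The macrophage genes were higher as a group with DMBA: 23 of 28 were over 2-fold higher and 0 over 2-fold lower, where 11.6% of the 12150 genes measured were over 2-fold higher and 7.79% over 2-fold lower. The median log2 ratio of the 28 genes was 1.71, that of all genes measured -0.15. With 1 array per group no test is possible; the SD of a log2 ratio was 0.31, from 539 pairs of probes that share an accession, and it covers the measurement within the arrays only. Among the 26 members good on both arrays, 21 were over 2-fold higher and 0 lower, where 9.24% of all such genes were higher and 5.78% lower.

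By role, all 3 C1q chains, all 6 Fc receptors and adaptors, all 3 subunits of the NADPH oxidase, 5 of 6 lineage and adhesion genes, 4 of 6 scavenger and pattern receptors and 2 of 4 lysosomal genes were over 2-fold higher with DMBA. Marco was 9.16-fold higher, C1qc 8.49-fold, Mrc1 8.16-fold, C1qa 7.03-fold and Aif1, an actin-binding protein of activated macrophages, 7.02-fold. Msr1, the class A scavenger receptor, had a level of 1.74 without and 4.15 with DMBA, a 5.31-fold difference, and the inhibitory Fc receptor Fcgr2b was 4.43-fold higher. Smaller differences were seen for Spi1, the lineage's master regulator (2.87 without, 4.12 with, 2.37-fold higher), Lyz2 (2.45-fold) and the activating Fc receptor Fcgr3 (2.51-fold). Both Ncf1 and Cybb of the oxidase were near background without DMBA, so that Ncf1 was at least 4.46-fold and Cybb, its catalytic subunit, at least 2.56-fold higher.

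The members that did not follow were the cathepsin Ctss, 1.97-fold higher, Laptm5, with a log2 ratio of 0.66, Clec4n, a lectin that recognises fungal mannans, with 0.02, the galectin Lgals3, with -0.45, and the lipopolysaccharide co-receptor Cd14, with -0.58. Lgals3 and Cd14 are also made by mammary epithelial cells. Other cell types moved between these arrays. The summed normalized intensity of 6 fibroblast markers was 203 with DMBA and 12.4 without, that of 5 endothelial markers 32.0 and 6.60, that of 4 adipocyte markers 1282 and 929, and that of 7 epithelial markers 570 and 1010. The 6 mast cell markers summed to 55.1 and 23.8 and the 5 T cell markers to 7.20 and 8.83, with Cd3e near background on both arrays. The part of these differences in the macrophage values was not tested.

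**Figure D2:**
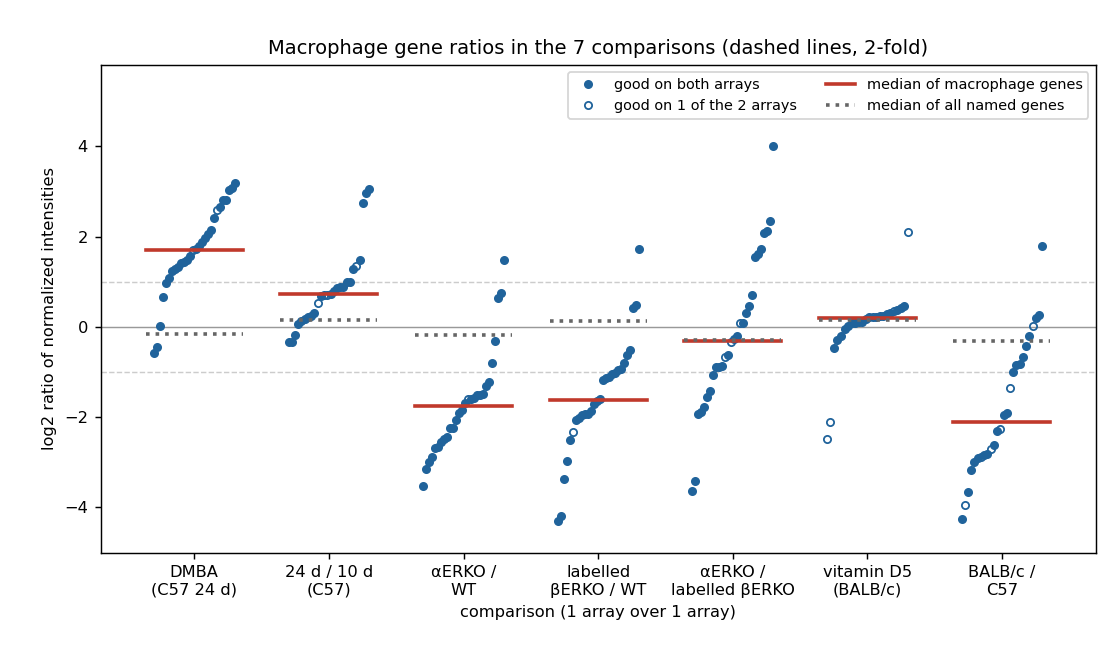
Log2 ratios of the macrophage genes in 7 comparisons, each of 1 array over 1 array; filled points were good on both arrays, open points on 1, the red line is the median of the macrophage genes and the dotted line that of all named genes measured. The red line is at 1.71 for DMBA and below -1.6 for both knockout arrays over WT, and the comparison of the knockout arrays has its points spread on both sides of 0.

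Culture time was examined in C57 glands without DMBA, 24 over 10 days. Of 26 macrophage genes measured, 6 were over 2-fold higher at 24 days and 0 over 2-fold lower, where 5.47% of genes measured were over 2-fold higher and 4.34% lower. These were C1qc, 8.26-fold, C1qa, 7.82-fold, C1qb, 6.74-fold, Marco, 2.78-fold, Mrc1, 2.42-fold, and the high-affinity IgG receptor Fcgr1, which was near background at 10 days and for which the bound is 1.52-fold. The median log2 ratio was 0.72, that of all genes 0.16, with an SD of 0.23 from 529 probe pairs. Of the 22 members good on both arrays, 5 were over 2-fold higher and 0 lower, where 2.33% of all such genes were higher and 2.39% lower. Of the 26 genes 23 had a ratio above 0, among them Fcer1g (0.86), Tyrobp (0.80), Lyz2 (0.89) and Fcgr3 (0.98), which lay outside that SD but under 2-fold. Spi1 (0.23) was level with that SD, and Msr1 (0.13), Siglec1 (0.18), a lectin of resident macrophages that binds sialic acid, and Trem2 (0.21), a lipid receptor that signals through Tyrobp, stayed within it.

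C1q therefore stood apart from the other members over time: its 3 chains ranked 76th to 98th from the top among 11887 genes measured. With DMBA the chains ranked 84th to 151st of 12150, and there Marco, Mrc1 and Aif1 were in the same range, at 72nd, 91st and 121st. Summed adipocyte markers were 929 at 24 days and 289 at 10 days and summed epithelial markers 1010 and 1371; their part was not tested.

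αERKO glands were set against the C57 glands with DMBA, the study's WT group. Macrophage genes were lower as a group: 23 of 28 were over 2-fold lower and 1 over 2-fold higher, where 15.2% of genes measured were over 2-fold lower and 10.2% higher. The median log2 ratio was -1.76, that of all genes -0.17, with an SD of 0.59 from 531 probe pairs. Of the 26 members good on both arrays, 21 were over 2-fold lower and 1 higher, where 12.6% of all such genes were lower and 7.86% higher. The lowest ratios were those of Msr1, 11.5-fold lower, Clec4n, 8.89-fold, Lyz1, 7.96-fold, Fcgr3, 7.43-fold, Cd84, a leukocyte adhesion receptor, 6.48-fold, and Mrc1, 6.32-fold. Spi1 was 4.71-fold lower and had its lowest level of all 7 arrays here, 1.88. Aif1 went the other way, with levels of 3.76 on the αERKO array and 2.27 on the WT array, a 2.81-fold difference, and Marco (log2 ratio 0.65) and Fcgr1 (0.75) were above 0 without reaching 2-fold.

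On the array labelled βERKO, 20 of 28 macrophage genes were over 2-fold lower than on the WT array and 1 was over 2-fold higher, where 7.29% of genes measured were over 2-fold lower and 6.62% higher. All directions drawn from this array are those of the label, which its Esr2 signal does not bear out. The median log2 ratio was -1.62, that of all genes 0.14, with an SD of 0.37 from 553 probe pairs. Of the 27 members good on both arrays, 19 were over 2-fold lower and 1 higher, where 4.62% of all such genes were lower and 4.87% higher. C1q was furthest down, with C1qc 19.6-fold, C1qa 18.3-fold and C1qb 10.4-fold lower, followed by Mrc1, 7.84-fold, and Aif1, 5.72-fold. The adaptors were lower by less, Fcer1g by 2.05-fold and Tyrobp by 1.95-fold, and Lgals3 was 3.32-fold higher. Markers of other cells were lower here as well: the summed normalized intensity of the fibroblast markers was 65.0, against 203 in WT glands, with 5 of 6 over 2-fold lower, and that of the endothelial markers 11.8 and 32.0, with all 4 measured over 2-fold lower. Their part in the macrophage values was not tested.

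Both of these comparisons share the WT array, which held the highest level of most members. Against the C57 array at 24 days without DMBA, a comparison chosen after the values were seen, the αERKO array had 6 genes over 2-fold higher (Fcgr1, Fcgr2b, C1qb, Marco, Aif1 and Ncf1) and 7 over 2-fold lower (Lyz1, Lyz2, Fcgr3, Cd14, Msr1, Lgals3 and Clec4n) of 27, with 15.8% of all genes over 2-fold higher and 24.2% lower. The array labelled βERKO had 2 over 2-fold higher (Marco and Lgals3) and 2 lower (C1qa and C1qc) of 28, with 8.87% of all genes higher and 4.52% lower. The medians were -0.26 and 0.26. The lower level of the macrophage genes as a group was thus seen against C57 glands with DMBA and not against C57 glands without it.

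The knockout arrays were then set against each other. Of 28 genes 7 were over 2-fold higher on the αERKO array and 8 over 2-fold lower, where 11.8% of genes measured were over 2-fold higher and 20.2% lower; the median ratio was -0.30, as for all genes (-0.30), with an SD of 0.56 from 526 probe pairs. All 15 of these were good on both arrays, among 25 such members, where 8.53% of all such genes were higher and 18.2% lower. The members thus differed in both directions, 15 of 28 being over 2-fold either way where 32% of all genes were. Of the roles, C1q had all its members over 2-fold higher. The member lysosomal genes were all lower, Lyz1 and Lgals3 by over 2-fold and Lyz2 (log2 ratio -0.63) and Ctss (-0.90) by less. The Fc receptors and adaptors had 2 higher and 2 lower and the scavenger and pattern receptors 1 higher and 3 lower. Higher on the αERKO array were Aif1 (16.1-fold), Marco (5.09-fold), C1qa (4.36-fold), C1qb (4.20-fold), C1qc (3.33-fold), Fcgr2b (3.08-fold) and Fcgr1 (2.91-fold). Lower on it were Clec4n (12.4-fold), Lgals3 (10.7-fold), Msr1 (3.82-fold), Cd14 (3.71-fold), Fcgr3 (3.45-fold), Cd84 (2.93-fold), Trem2 (2.67-fold) and Lyz1 (2.08-fold). Spi1 (2.09 on the array labelled βERKO, 1.88 on the αERKO array), Mrc1 (1.21 and 1.52), Cd163, a haemoglobin scavenger receptor (0.07, a spot called irregular, and 0.14), and Ncf1 (-1.11 and -1.03) differed by less than the SD.

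**Figure D3:**
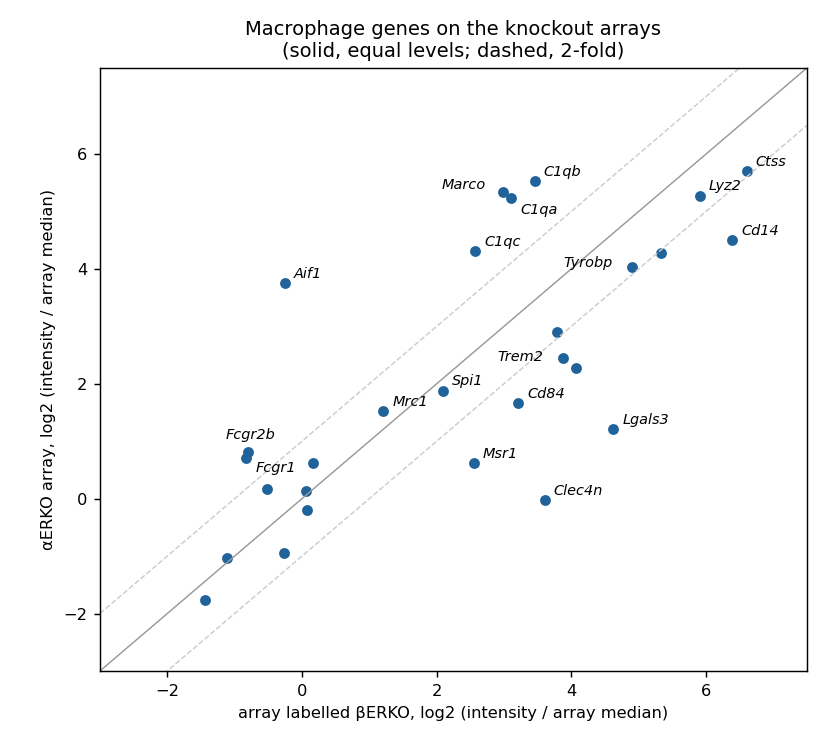
Levels of the 28 macrophage genes on the array labelled βERKO (x axis) and on the αERKO array (y axis), both log2 of intensity over the array median; the solid line marks equal levels and the dashed lines 2-fold. The C1q chains, Marco and Aif1 lie above the upper dashed line, and Clec4n, Lgals3, Msr1 and Cd14 below the lower one.

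Marco, Aif1, Clec4n, Lgals3 and Cd14, which were among these genes, are given over all arrays. Marco, a scavenger receptor that macrophages take up bacteria with, had levels of 0.02 in C57 glands at 10 days, 1.49 at 24 days, 4.69 with DMBA, 2.99 on the array labelled βERKO, 5.33 on the αERKO array, -0.42 on the BALB/c array and -0.70 on that with vitamin D5. Aif1 had -0.20, -0.54, 2.27, -0.25, 3.76, -0.52 (near background) and -0.27 in the same order, so that it was high on the C57 array with DMBA and on the αERKO array and lay between -0.54 and -0.20 on the others. Clec4n had 3.28, 3.11, 3.13 and 3.61 on the first 4 arrays in that order, -0.03 on the αERKO array, and 1.15 and 1.24 on the BALB/c arrays. The αERKO array thus had the lowest level of Clec4n. It also had the lowest levels of Lgals3, with 1.20 where the other 6 arrays lay between 2.48 and 4.63, and of Cd14, with 4.50 where the others lay between 5.98 and 7.14.

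**Figure D4:**
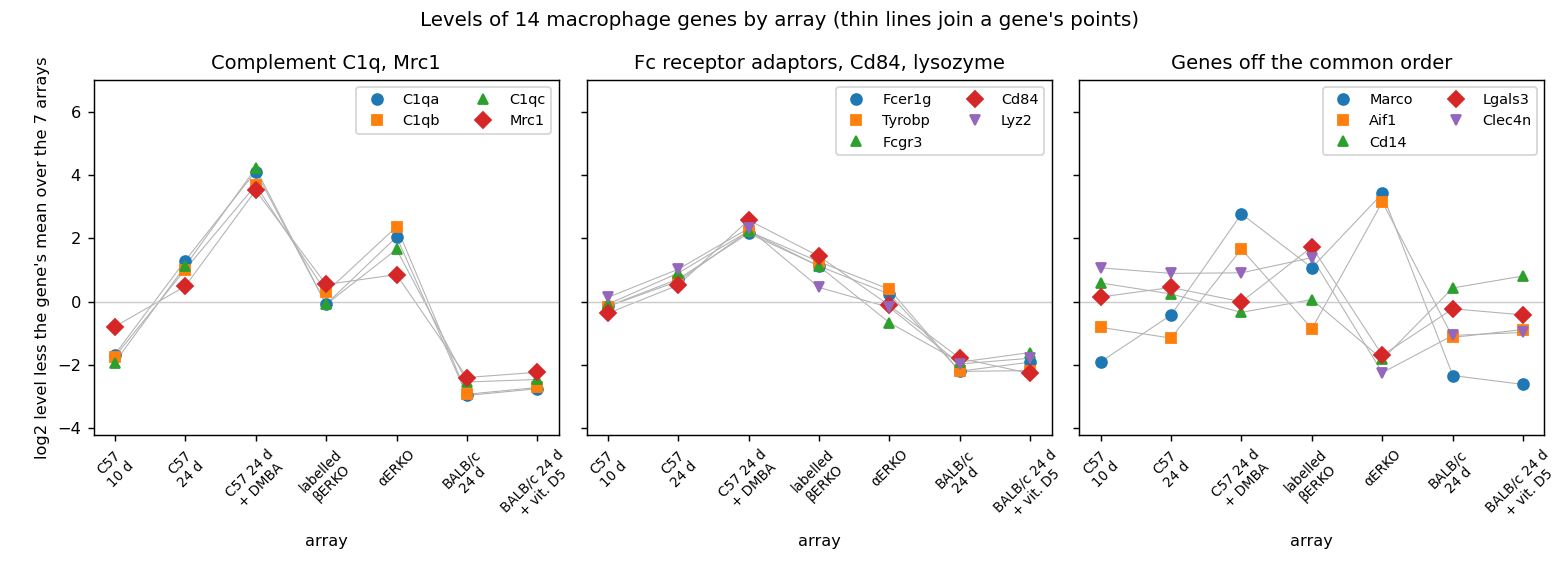
Levels of 14 macrophage genes on the 7 arrays, as log2 differences from each gene's mean over the arrays; points are single arrays and thin lines only join the points of a gene. C1q and Mrc1 (left) and Fcer1g, Tyrobp, Fcgr3, Cd84 and Lyz2 (middle) peak on the C57 array with DMBA and are lowest on the BALB/c arrays, whereas Marco and Aif1 (right) peak on the αERKO array and Cd14, Lgals3 and Clec4n are lowest there.

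Markers of other cells stood apart on the αERKO array. The summed normalized intensity of 4 pan-leukocyte markers was 48.4 there and between 1.97 and 16.9 on the other arrays, that of 5 T cell markers 57.8 against 6.70 to 8.83, that of 6 fibroblast markers 401 against 12.4 to 203, and that of 4 skeletal muscle markers 463 against 1.45 to 29.8, while 7 epithelial markers summed to 424 against 570 to 1503. B cell markers summed to 19.9 against 10.1 to 12.5 and dendritic cell markers to 11.3 against 7.76 to 8.42. The sum of 8 neutrophil markers was highest on the BALB/c arrays (48.2 and 62.8) and lowest on the C57 array with DMBA (12.9) and the αERKO array (14.3). That sum rests mostly on S100a8, with levels of 5.32 and 5.71 on the BALB/c arrays and 2.18 on the αERKO array. Single neutrophil markers did not share 1 order. S100a9, Camp and Ngp were highest on a BALB/c array, and Elane (1.69), Retnlg (0.81) and Cxcr2 (-0.07) on the αERKO array. On the αERKO array 7 of the 8 were good, against 6 and 4 on the BALB/c arrays. Cd3e was not called good on any array. The part of these other cells in the macrophage values was not tested.

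BALB/c glands were set against C57 glands without DMBA, both at 24 days; whether the BALB/c glands received DMBA is not stated in their titles. Of 26 macrophage genes measured, 17 were over 2-fold lower in BALB/c and 1 over 2-fold higher, where 12.2% of genes measured were over 2-fold lower and 6.22% higher. The median log2 ratio was -2.11, that of all genes -0.31, with an SD of 0.33 from 534 probe pairs. Of the 20 members good on both arrays, 12 were over 2-fold lower and 1 higher, where 9.89% of all such genes were lower and 2.55% higher. C1qa was 19.1-fold, C1qb, with its irregular spot, 15.3-fold and C1qc 12.7-fold lower, and Lyz1 9.07-fold, Lyz2 7.94-fold, Fcer1g 7.51-fold, Tyrobp 7.21-fold, Fcgr3 7.01-fold and Ctss 6.14-fold lower. Mrc1 was near background on the BALB/c array and at least 7.37-fold lower. The count of 17 also holds Itgam and Fcgr2b, near background in BALB/c glands, with bounds of 1.66-fold and 1.72-fold; with values raised to the lowest good value, 15 were over 2-fold lower. Spi1 (log2 ratio -0.85), Trem2 (-0.83), Siglec1 (-0.21) and Cd14 (0.19) differed by less than 2-fold, and Fcgr1 was 3.45-fold higher. Summed adipocyte markers were 253 in BALB/c and 929 in C57 glands, summed T cell markers 7.16 and 8.83, and their part was not tested.

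Vitamin D5 was examined in BALB/c glands. Over the 24 genes measured the median log2 ratio was 0.20, that of all genes 0.16, and 1 gene was over 2-fold higher and 2 over 2-fold lower, where 4.41% of genes measured were over 2-fold higher and 4.39% lower. These were Fcgr2b, at least 1.53-fold higher, Fcgr1, at least 5.57-fold lower, and Ncf4, an oxidase subunit, at least 4.13-fold lower, each near background on 1 of the 2 arrays. Among the 18 genes good on both arrays, 0 were over 2-fold either way, with ratios between -0.48 and 0.46, where 1.55% of all such genes were over 2-fold higher and 0.668% lower.

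Other genes of macrophage biology were taken from lists by function. A list of growth factors and chemokines, with the receptors Ccr2 and Cx3cr1, had 8 genes measured. Of these, 1 (12.5%) was over 2-fold higher with DMBA, a share near the 11.6% of all genes. It was Ccl2, the ligand of the monocyte receptor Ccr2, with a level of 2.56 without and 3.75 with DMBA. Csf1, the growth factor of the lineage, had levels of -0.05 without and 0.47 with DMBA, and Csf2 was near background on all 7 arrays. Of 18 signalling and transcription genes of myeloid cells, 7 (38.9%, against 11.6% of all genes) were over 2-fold higher with DMBA and 0 lower, among them Itgb2, the integrin chain that pairs with Itgam, and Plek.

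Of 14 other pattern and engulfment receptors, 8 (57.1%, against 11.6% of all genes) were over 2-fold higher with DMBA and 0 lower. Lyve1, 13.7-fold higher, and Stab1, 9.78-fold higher, both also made by lymphatic or sinusoidal endothelium, were furthest up. With culture time, 4 of 14 (28.6%, against 5.47% of all genes) were over 2-fold higher and 0 lower, with the fatty acid transporter Cd36, also an adipocyte gene, 3.57-fold and the lectin Clec10a 3.22-fold higher. On the array labelled βERKO Clec10a was 10.9-fold and Stab1 9.13-fold lower than on the WT array. Of 11 activation genes, 2 were over 2-fold higher with DMBA (Il10 and Ccl24) and 2 lower (Ptgs2, the inducible cyclooxygenase, 14.1-fold lower, and Ccl17). Each is 18.2% of the list, against 11.6% of all genes higher and 7.79% lower. Il10 and Ccl24 were near background without DMBA, and Ccl17 with it. Among the 6 good on both arrays, 0 were over 2-fold higher and 1 (16.7%), Ptgs2, lower, where 9.24% of all such genes were higher and 5.78% lower.

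On the αERKO array, Retnla, a secreted protein of alternatively activated macrophages that adipose tissue also makes, had a level of 7.77 and between 0.67 and 1.69 on the other 6 arrays, which is 137-fold higher than on the WT array and 67.9-fold higher than on the array labelled βERKO. Cd209a, a dendritic cell and macrophage lectin, was 9.68-fold higher than on the WT array, and the phosphatase Acp5 was 16.0-fold higher than on the array labelled βERKO. Of 19 lysosomal genes, 11 (57.9%, against 15.2% of all genes) were over 2-fold lower in αERKO than in WT glands and 1, Acp5, was higher, the lowest being the acid lipase Lipa, 8.72-fold lower, and 7 of 18 myeloid signalling genes (38.9%) were lower and 0 higher, Plek being 8.45-fold lower. Tfeb, a regulator of lysosomal genes, was 2.57-fold lower with DMBA than without. On the array labelled βERKO 2 of 19 lysosomal genes were over 2-fold lower than in WT and 0 higher, a share of 10.5% that is near the 7.29% of all genes. Against C57, BALB/c glands had 7 of 19 lysosomal genes (36.8%, against 12.2% of all genes) over 2-fold lower and 0 higher.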

How the data were processed

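Total RNA of cultured glands was hybridized by the authors to CodeLink Mouse Whole Genome arrays, stained with Cy5-streptavidin and read with CodeLink Expression Analysis software. As deposited, a spot's intensity is the mean over its pixels after subtraction of the median local background, and the deposited normalized intensity divides this by 1 constant per array. The software version is not given in the sources used here. The deposited series table was not used, since its row numbers name no probe.

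The intensity of each of the 34967 gene probes was divided by its array's median over gene probes, non-positive values were set to the smallest positive one, and log2 was taken (Python 3.11.15, pandas 2.3.3). RefSeq's mouse gene table (GRCm38.p6) named 14763 of 15553 probes with a RefSeq accession. A gene with several probes took the probe with the highest mean level. A gene was measured in a comparison where its spot was good on at least 1 of the 2 arrays; ratios over 2-fold were counted, as in the study's methods. A spot near background gave a bound, taken from the lowest good value of its array or its own value, whichever was higher. No test was run, since each group has 1 array, and the number of arrays limits the precision. The median intensity lay between 39.1 and 53.0, over a median local background of 80 to 83.

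The 34 genes and all lists were chosen with earlier results of these data known. All members are named; of other lists, the 2 largest rises and falls over 2-fold per comparison among genes good on both arrays, and others named to explain a count, after their values were seen. Alternatives were other scalings (75th percentile, quantile, cyclic loess and normexp with an offset of 50 in limma 3.58.1; the deposited normalized intensities), a floor, other filters, a median over probes and other thresholds. The counting was run on simulated data with large changes and noise below the SD between probes. Such a run checks the code only and says nothing of how reliable the counts are. Some results of the other lists are not reported here.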

Additional observations from a re-analysis of the deposited data

How the results depend on the processing

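Over 7 comparisons, 70 of 77 alternative counts of macrophage genes over 2-fold lay within 1.5 times the first value, and 58 of 63 alternative medians within the SD between probes. These tallies hold alternatives that could differ little or not at all. The median over probes equals the first value, since each member has 1 probe. The deposited normalized intensities differ from the first values by 1 constant per array. Normexp background correction with an offset of 50 brought the median to 1.37 for DMBA, 0.32 for culture time, -1.15 for the array labelled βERKO over WT and -0.85 for BALB/c over C57, and the count to 3 for culture time and 0 for vitamin D5. With values raised to the lowest good value, the median of BALB/c over C57 was -1.63. A 3-fold threshold left 15 genes for DMBA and 3 for culture time, and a 1.5-fold threshold gave 16 for culture time. For vitamin D5, 0 genes were over 2-fold among those good on both arrays and 5 without a filter. The shares of all genes were not counted under normexp, the floor, the other thresholds or without a filter. These member counts therefore have no share to be set beside. With C57 glands without DMBA as the reference, added after the data were seen, the counts were 13 for αERKO and 4 for the array labelled βERKO, and the medians -0.26 and 0.26, the second with its sign turned. The causes were not tested. Of 110 ratios of single genes over 2-fold, 0 changed sign under any alternative scaling or the floor. The filters and the probe rule could not turn a sign, since a filter only drops genes and each member has 1 probe. Scaling to the 75th percentile moved the median of all genes by 0.13 for αERKO over WT, 0.18 for αERKO over the array labelled βERKO, 0.22 for BALB/c over C57 and -0.13 for vitamin D5. No paired analysis was possible because each group has 1 array; no array could be left out for the same reason. Dim probes limit the oxidase genes and Itgam most: Cybb was good on 2 arrays and Itgam and Ncf1 on 3.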
